A study of Mus musculus with 8 samples.

Results

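The comparison set 4 corpus callosum libraries labelled WT beside 4 labelled TRPA1-KO, with each library of 1 label paired with the library of the other label that had the same operation and postoperative day. The genes described were autosomal and had a mean of at least 1 CPM, the unit of read counts scaled to the size of each library, over the 8 libraries, which held for 14601 of the 25239 genes in the deposited table. Differences are given as label WT minus label TRPA1-KO on the scale log2(CPM + 1), so that a positive value means a higher level with the label WT. A gene was said to separate all 4 pairs when its difference had 1 sign in the sham pair and in the 3 BCAS pairs, and its labels were said not to overlap when the lowest library of 1 label lay above the highest of the other.

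The study asked what the TRPA1 channel does in white matter under chronic cerebral hypoperfusion. Both labels were C57BL/6 mice. Adult males were used, and polyadenylated RNA of the corpus callosum was sequenced. With each label there was 1 sham-operated library from day 14 and 1 library each from days 7, 10 and 14 after bilateral common carotid artery stenosis (BCAS), in which microcoils narrow both carotid arteries. The sham operation was the same without coils, and no library was labelled sham on days 7 or 10. No label said how many animals entered a library, and the study's methods describe a sample in general as coming from a single mouse. The wild-type mice were bought as C57BL/6J and the knockout line came from another supplier and was backcrossed to that strain, so the allele and the origin of the mice cannot be told apart here. Each condition had 1 library per label, so the 4 libraries of a label served as its replicates and the spread behind every p holds operation, day, animal and handling together.

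TRPA1 is a cation channel of the transient receptor potential family that opens to reactive irritants and oxidants. It is best known from sensory neurons, and astrocytes have also been reported to carry it. The corpus callosum is a tract of myelinated axons populated by oligodendrocytes, astrocytes and microglia. In a line made with a targeted allele, donor sequence around that allele can persist through backcrossing, which is why distance from *Trpa1* is given for chromosome 1.

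The libraries held between 7896071 and 12952093 reads on genes. Summed CPM of 6 oligodendrocyte markers ranged from 11946 to 14371 with the label WT and from 11769 to 15811 with the label TRPA1-KO, so the labelled tissue had its defining genes. Genes of striatal projection neurons, which lie below the callosum, were measured in every library, and their summed CPM over 8 markers ranged from 845 to 1641 with the label WT and from 937 to 2230 with the label TRPA1-KO. Fewer cells of a type and less RNA per cell cannot be told apart in such libraries.

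*Trpa1* itself went against the labels. The gene (chromosome 1, 14872644 to 14918862, GRCm38.p6, minus strand) had 1 read in the sham library labelled WT and 0 reads in each of the 3 BCAS libraries labelled WT. With the label TRPA1-KO it had 10 reads in the sham library and 11, 3 and 7 reads on BCAS days 7, 10 and 14. The labels did not overlap, with the label that should lack the channel at the higher level (exact permutation test of the mean log2(CPM + 1), two-sided, p = 0.029, the smallest that 4 against 4 allows). A count of 0 allows up to 3 reads, and 3 reads were worth between 0.235 and 0.378 CPM in these libraries. The values count reads over the whole gene, so they do not show whether the reads came from the deleted part. The libraries are therefore called by their labels throughout, and a direction given here is a direction between labels.

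Across the 14601 genes, 4 were called at an adjusted p under 0.05 by limma, which is 0.0274% of those tested, and all 4 were higher with the label WT. They were *Hjurp*, *Cdc42bpg*, *Ehd1* and *9030025P20Rik*. An unadjusted p under 0.05 was reached by 556 genes (3.81%), of which 281 (1.92%) were higher in the libraries labelled WT and 275 (1.88%) in those labelled TRPA1-KO. edgeR called 3 genes and DESeq2 called 8 on the reads recovered from the same values. limma called 9 genes without the day 7 BCAS library labelled WT and 7 without that labelled TRPA1-KO.

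*Hjurp* encodes the chaperone that loads the centromeric histone CENP-A. It lies on chromosome 1 at 88258856 to 88277644, far from *Trpa1*, and overlaps *Mroh2a*. With the label WT its level was 87.8 CPM in the sham library and 103, 88.8 and 80.8 CPM on BCAS days 7, 10 and 14. With the label TRPA1-KO it was 30.2 CPM in the sham library and 27.2, 26.1 and 50.9 CPM on the same days. All 4 libraries labelled WT lay above all 4 labelled TRPA1-KO, of which the day 14 BCAS library was the highest. The mean was 90.2 ± 9.52 CPM against 33.6 ± 11.7 CPM (SD, n = 4 libraries per label), a 2.69-fold difference, and the log2 difference was 1.45 (SE 0.17, limma adjusted p = 0.0056). *Mroh2a* itself differed by -0.02 (SE 0.16), and the counting was not stated to use strand, so reads in the shared stretch cannot be assigned to 1 of the 2 genes.

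*Cdc42bpg* and *Ehd1* are neighbours on chromosome 19. *Cdc42bpg* (6306253 to 6325653) encodes a kinase of the MRCK family that acts downstream of the GTPase CDC42, and *Ehd1* (6276896 to 6300096) encodes an ATPase that recycles endocytosed membrane. With the label WT *Cdc42bpg* stood at 17.8 CPM after sham and at 16.2, 18.7 and 15.5 CPM on BCAS days 7, 10 and 14. With the label TRPA1-KO it stood at 8.92 CPM after sham and at 7.68, 6.94 and 7.91 CPM after BCAS. The lowest library labelled WT thus lay well above the highest labelled TRPA1-KO, and the log2 difference was 1.02 (SE 0.11, limma adjusted p = 0.0034, 2.16-fold).

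*Ehd1* was flatter over the conditions. Its 4 libraries labelled WT lay between 50.8 and 55.1 CPM and its 4 labelled TRPA1-KO between 31.8 and 36.4 CPM, with a log2 difference of 0.63 (SE 0.07, limma adjusted p = 0.0038, 1.56-fold). The starts of these 2 genes lie 29.4 kb apart, and neither shares a stretch of 50 bases with another annotated transcript. Both were called under all alternatives tried for this comparison.

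*9030025P20Rik*, a predicted protein-coding gene on chromosome 17 (14978864 to 14991577), was the call closest to the threshold. With the label WT its level was 99.4 CPM after sham and 138, 99.9 and 95.1 CPM on BCAS days 7, 10 and 14, against 69.4 CPM after sham and 61.3, 67.8 and 67.5 CPM after BCAS with the label TRPA1-KO. The log2 difference was 0.68 (SE 0.10, limma adjusted p = 0.048), and the day 7 library labelled WT was far above the other 3 of its label. Most alternatives ended this call, among them edgeR (adjusted p = 0.066), no filter (limma adjusted p = 0.14) and operation as a covariate (limma adjusted p = 0.089), and the adjusted p ran from 8.3e-06 in DESeq2 to 0.22 without the day 10 BCAS library labelled TRPA1-KO. The next gene outside the threshold was *Kcnc2*, a voltage-gated potassium channel gene, at 0.45 (SE 0.07, limma adjusted p = 0.054).

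**Figure D1:**
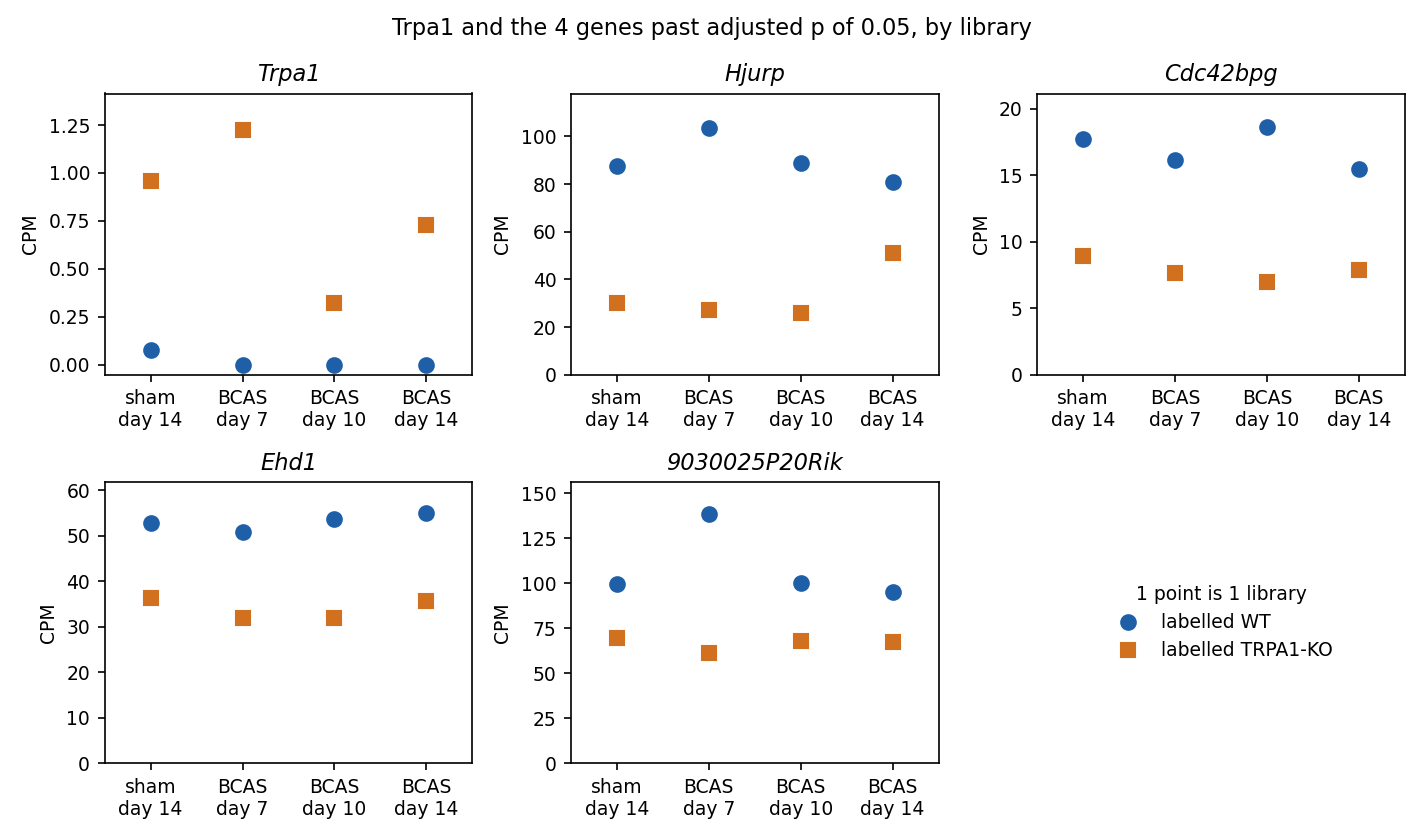
CPM (y axis, linear) of *Trpa1* and of the 4 genes called by limma in each library, by operation and day (x axis); 1 point is 1 library, circles are labelled WT and squares TRPA1-KO. The 4 called genes are higher with the label WT in all 4 conditions, *9030025P20Rik* being the call that most alternatives ended, whereas *Trpa1*, at 11 reads or fewer per library, is higher with the label TRPA1-KO.

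All 4 pairs were separated by 1571 genes (10.8%), with 700 higher for WT (4.79%) and 871 higher for TRPA1-KO (5.97%). The labels did not overlap at all for 350 genes (2.4%), 181 higher for WT (1.24%) and 169 higher for TRPA1-KO (1.16%). These counts describe the libraries and carry no test. Unrelated signs would agree in 4 pairs, and unrelated labels would not overlap, in somewhat larger shares of genes than these. Neither count by itself therefore shows a label difference. Most of the separating genes differed little: the median size of the difference was 0.19 for those higher with the label WT and 0.17 for those higher with the label TRPA1-KO. The median over genes of the smallest of the 4 pair differences was 0.048 and 0.046. Differences over 1 were held by 17 genes higher with the label WT and by 3 higher with the label TRPA1-KO. The separating genes were not expressed at an unusual level, with a median of 23.4 CPM beside 25.7 CPM over all genes tested.

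A difference of at least 0.5 in each of the 4 pairs was held by 11 genes (0.0753%). The 8 that were higher with the label WT (0.0548%) were *Hjurp*, *Cdc42bpg*, *Ehd1* and the zinc finger genes *Zfp965*, *Zfp966*, *Zfp967*, *Zfp968* and *Zfp973*. The 3 that were higher with the label TRPA1-KO (0.0205%) were *Gm3020* and *Gm10409* on chromosome 14 and *Mir6992* on chromosome 19. *Ehd1* lay just inside that limit, with a smallest pair difference of 0.52. *Usp18*, which encodes a protease that removes the interferon-induced modifier ISG15 from proteins, lay just outside it at 0.49.

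The 5 zinc finger genes lie together at the distal end of chromosome 2, in a cluster of KRAB-type zinc finger genes, a family of DNA-binding repressors that grew by repeated local duplication. In the span from 175185165 to 176681090, 15 genes were tested, 13 separated all 4 pairs, and the labels of 11 did not overlap, all 11 higher with the label WT. The cluster is built of near copies, and this bears on what the values can show. *Gm4724*, *Gm14434* and *Gm14308* had the same reads in all 8 libraries, as did *Zfp966* and *Zfp967*, so the 11 genes held 8 distinct profiles. Windows of 300 bases (250 before and 50 after the start that the RefSeq promoter table takes for each gene) are shown for 4 of the 11 genes because they make the copies visible. The sequences are from RefSeq (GRCm38.p6), 5′ to 3′ on the strand of the gene, and the capital marks the only position at which *Zfp968* and *Zfp973* differ. That position is A106G, counted from 1 at the 5′ end of the window with the base of *Zfp968* first. The window printed for *Gm4724* (chr2:175435728-175436027, minus strand) is identical in *Gm2026*, *Gm14434* and *Gm14308*, and that of *Zfp967* (chr2:176520754-176521053, plus strand) is identical in *Zfp966*. The windows of *Zfp968* and *Zfp973* are chr2:175372186-175372485 and chr2:176670272-176670571, both on the plus strand. For *Zfp968* and *Gm4724* the window does not lie at the outer end of the annotated gene span.
Gm4724: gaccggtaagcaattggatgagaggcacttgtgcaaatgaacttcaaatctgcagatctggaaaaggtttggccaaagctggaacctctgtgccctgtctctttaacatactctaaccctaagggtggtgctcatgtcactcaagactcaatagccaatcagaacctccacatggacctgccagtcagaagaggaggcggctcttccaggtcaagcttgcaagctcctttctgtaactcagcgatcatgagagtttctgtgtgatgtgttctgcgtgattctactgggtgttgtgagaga
Zfp967: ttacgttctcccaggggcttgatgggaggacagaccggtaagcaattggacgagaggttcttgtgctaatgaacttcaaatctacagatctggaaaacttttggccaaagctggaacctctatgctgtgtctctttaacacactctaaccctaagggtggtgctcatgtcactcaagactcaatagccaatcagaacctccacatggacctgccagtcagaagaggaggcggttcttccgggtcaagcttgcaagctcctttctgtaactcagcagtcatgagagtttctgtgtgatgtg
Zfp968: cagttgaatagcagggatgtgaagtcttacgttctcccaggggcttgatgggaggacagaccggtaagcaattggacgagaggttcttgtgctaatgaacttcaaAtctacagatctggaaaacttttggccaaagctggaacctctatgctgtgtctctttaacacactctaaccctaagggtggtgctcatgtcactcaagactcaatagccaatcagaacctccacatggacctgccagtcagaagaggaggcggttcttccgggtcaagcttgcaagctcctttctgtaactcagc
Zfp973: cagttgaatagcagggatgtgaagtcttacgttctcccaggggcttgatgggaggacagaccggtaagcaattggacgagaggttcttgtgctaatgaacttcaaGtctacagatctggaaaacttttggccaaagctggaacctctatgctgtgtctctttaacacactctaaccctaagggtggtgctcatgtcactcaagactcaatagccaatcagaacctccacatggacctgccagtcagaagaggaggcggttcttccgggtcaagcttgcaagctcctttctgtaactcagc

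Of all stretches of 50 bases in its annotated transcripts, *Zfp967* shared 100% with another gene, *Zfp965* 96.3%, *Zfp968* 95.5%, *Zfp966* 90.0% and *Zfp973* 84.7%. Between annotated 5′ ends, 3 divergent pairs of the cluster had a like spacing. It was 34.1 kb for *Zfp966* and *Gm2026*, 34.2 kb for *Gm14434* and *Zfp967*, and 34.1 kb for *Gm14308* and *Zfp973*. Which copy a read came from is uncertain throughout the cluster.

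*Zfp967* and its copy *Zfp966* reached 93.3 CPM after sham with the label WT, and 97.3, 87.8 and 70.2 CPM on BCAS days 7, 10 and 14. With the label TRPA1-KO they had 56.3 CPM after sham and 48.3, 20.2 and 11.7 CPM on BCAS days 7, 10 and 14. The labels did not overlap, yet the libraries labelled TRPA1-KO were far from alike, with the sham and day 7 libraries several times above the day 14 library. The log2 difference was 1.57 (SE 0.38, limma adjusted p = 0.83), so the largest difference of all genes tested did not pass the test.

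*Gm2026*, *Gm4724* and the 2 genes with the same reads as *Gm4724* were the most abundant of the cluster, *Gm2026* by a few reads. With the label WT *Gm4724* had 445 CPM after sham and 426, 447 and 381 CPM after BCAS, and with the label TRPA1-KO 244 CPM after sham and 314, 136 and 101 CPM after BCAS. Here too the day 10 and day 14 libraries labelled TRPA1-KO were the low ones. The log2 difference was 1.23 (limma adjusted p = 0.61), and without the day 7 BCAS library labelled TRPA1-KO *Gm4724*, *Gm14308*, *Gm14434* and *Gm2026* were called, which brought the count of calls to 7.

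*Zfp973* ranged from 13.8 to 15.9 CPM with the label WT and stood at 7.86, 7.90, 3.52 and 1.35 CPM in the sham, day 7, day 10 and day 14 libraries labelled TRPA1-KO. The median difference over the 11 genes was 0.72 in the sham pair, 0.44 on day 7, 1.71 on day 10 and 1.91 on day 14. Not every gene of the span followed. *Gm14440* and *Gm2004* did not separate the pairs, *Gm14288* separated them with overlapping labels, and *2210418O10Rik* separated them in the other direction (-0.13, label TRPA1-KO higher).

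**Figure D2:**
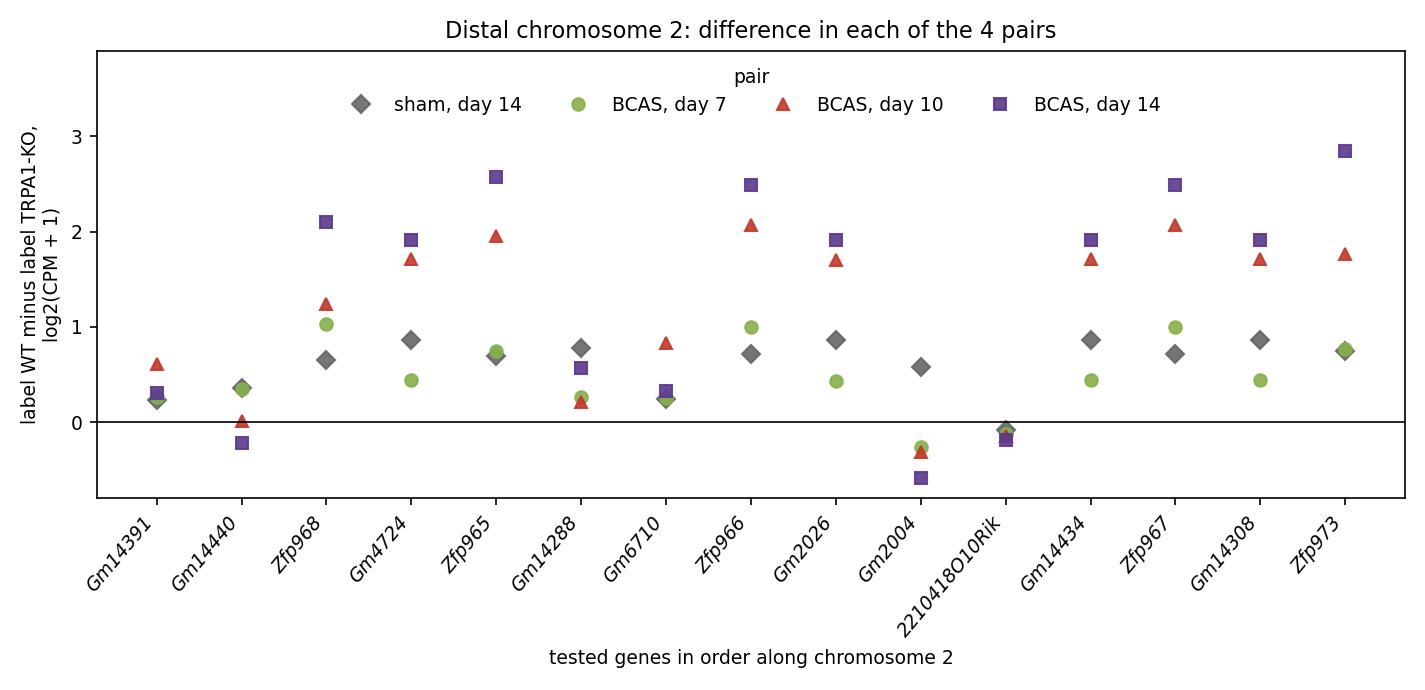
Difference between the labels on the log2(CPM + 1) scale (y axis) in each of the 4 pairs for the 15 tested genes of the distal chromosome 2 span, in their order along the chromosome (x axis); 1 symbol is 1 pair. In most of the genes the day 10 and day 14 pairs lie above the sham and day 7 pairs, while *Gm2004* and *2210418O10Rik* lie at or below 0 in most pairs.

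Neighbours that do not overlap between labels were counted as a run when at least 3 of them each started within 1 Mb of the one before. There were 23 runs, a number that was not tested, and the 4 with the largest median absolute difference are described singly. The chromosome 2 run had a median absolute difference of 1.23, that on chromosome 14 (3049285 to 3672140) of 1.03, that on chromosome 17 (14978864 to 15090045) of 0.58 and that on chromosome 19 (4000580 to 6325653) of 0.46. In the other 19 runs the median lay between 0.11 and 0.38, and 15 of these held genes of both directions.

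Single genes of those smaller runs reached larger values. *Ephb4*, which encodes a receptor tyrosine kinase of veins for ephrin-B2, lay between 5.29 and 7.83 CPM with the label WT and between 3.78 and 4.51 CPM with the label TRPA1-KO (0.53, SE 0.14). *Mkln1os*, a non-coding RNA gene opposite *Mkln1*, differed by 0.60 (SE 0.17) and *Gipc3*, which encodes a scaffold protein of the inner ear, by -0.65 (SE 0.19). None of these passed limma's adjusted threshold. Outside the runs, *Mir6992* had 20, 11, 8 and 7 reads in the sham, day 7, day 10 and day 14 libraries labelled WT and 33, 21, 23 and 20 in those labelled TRPA1-KO (-0.76, SE 0.19). It lies inside *Stx5a*, a gene for a Golgi fusion protein, and all of its sequence is shared with that gene, so its reads cannot be told from those of *Stx5a*. *Depdc7*, on chromosome 2 away from the zinc finger cluster, differed by -0.60 (SE 0.20).

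On chromosome 14 the run held *Gm2897*, *Gm10409* and *Gm3020*, all 3 higher with the label TRPA1-KO, among 6 tested genes of the span. They belong to a family of near-identical copies, and *Gm10409* and *Gm3020* are annotated as transcribed pseudogenes. *Gm10409* had 4.07, 4.54, 2.52 and 2.96 CPM in the sham, day 7, day 10 and day 14 libraries labelled WT. With the label TRPA1-KO it had 9.97, 8.13, 8.01 and 6.55 CPM in the same order, each above every library labelled WT. Its difference was -1.03 (SE 0.18, limma adjusted p = 0.11), and it was called by DESeq2 and also by limma without the day 7 library labelled WT. *Gm3020* differed by -1.08 (SE 0.28), from a mean of 1.1 CPM with the label WT to 3.37 CPM with the label TRPA1-KO. Other genes shared 100% of the 50-base stretches of *Gm10409*, 99.7% of those of *Gm3020* and 88.8% of those of *Gm2897*, so the source of these reads is uncertain too. *Gm10408*, *Gm3005* and *D830030K20Rik* in the same span did not separate the pairs.

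On chromosome 17 *9030025P20Rik* was joined by *Gm3435* and *Ermard*, which lie next to it and were also higher with the label WT. *Ermard* encodes a membrane protein of the endoplasmic reticulum. *Gm3435* had 89.3, 123, 85.4 and 85.1 CPM in the sham, day 7, day 10 and day 14 libraries labelled WT and 68.6, 58.0, 64.4 and 63.9 CPM in those labelled TRPA1-KO. Its difference was 0.57 (SE 0.11, limma adjusted p = 0.27), and that of *Ermard* was 0.58 (SE 0.13, limma adjusted p = 0.65). DESeq2 called all 3 genes. Annotated transcripts of *Gm3435* shared 91.1% of their 50-base stretches with *9030025P20Rik* and *Ermard*, *9030025P20Rik* shared 68.1% and *Ermard* 34.0% with other genes, so the 3 differences are not independent counts. The other 2 tested genes of the span, *Gm3448* and *Tcte3*, were higher for TRPA1-KO in the sham and day 14 pairs and lower in the day 7 and day 10 pairs.

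The chromosome 19 run was of another kind. It held 7 genes among 110 tested over 2.33 Mb, and its genes went both ways: *Ehd1*, *Cdc42bpg*, *Gm10814* and *Nudt8* were higher with the label WT, and *D330050I16Rik*, *Snx15* and *Rce1* with the label TRPA1-KO. Within 500 kb of *Ehd1*, 6 of 32 tested neighbours separated all 4 pairs, beside 10.8% over all genes tested. Apart from *Cdc42bpg*, these were *Dpf2* (-0.11), *Gm10814* (0.39), *Snx15* (-0.17), *Ppp2r5b* (-0.05) and *Rasgrp2* (-0.28), all smaller than *Ehd1* and *Cdc42bpg*. *Atg2a*, which starts 35.4 kb before *Ehd1*, differed by 0.00065 (SE 0.063), and *Men1*, which starts 28.7 kb after *Cdc42bpg*, differed by 0.0072 (SE 0.079). The 2 called genes thus stood between neighbours with differences near 0.

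Around *Hjurp*, 0 of 14 tested neighbours within 500 kb separated all 4 pairs, beside 10.8% over all genes tested, yet not all of them differed by near 0. Among them, 8 *Ugt1a* genes, which encode glucuronosyltransferases and share a 3′ end, differed by between 0.48 and 0.58 with SEs from 0.31 to 0.37. Several of the 8 had identical reads, so the 14 neighbours are not separate cases. Around *9030025P20Rik*, 2 of 12 neighbours separated the pairs, namely *Gm3435* and *Ermard*. These counts of neighbours are small and carry no test.

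**Figure D3:**
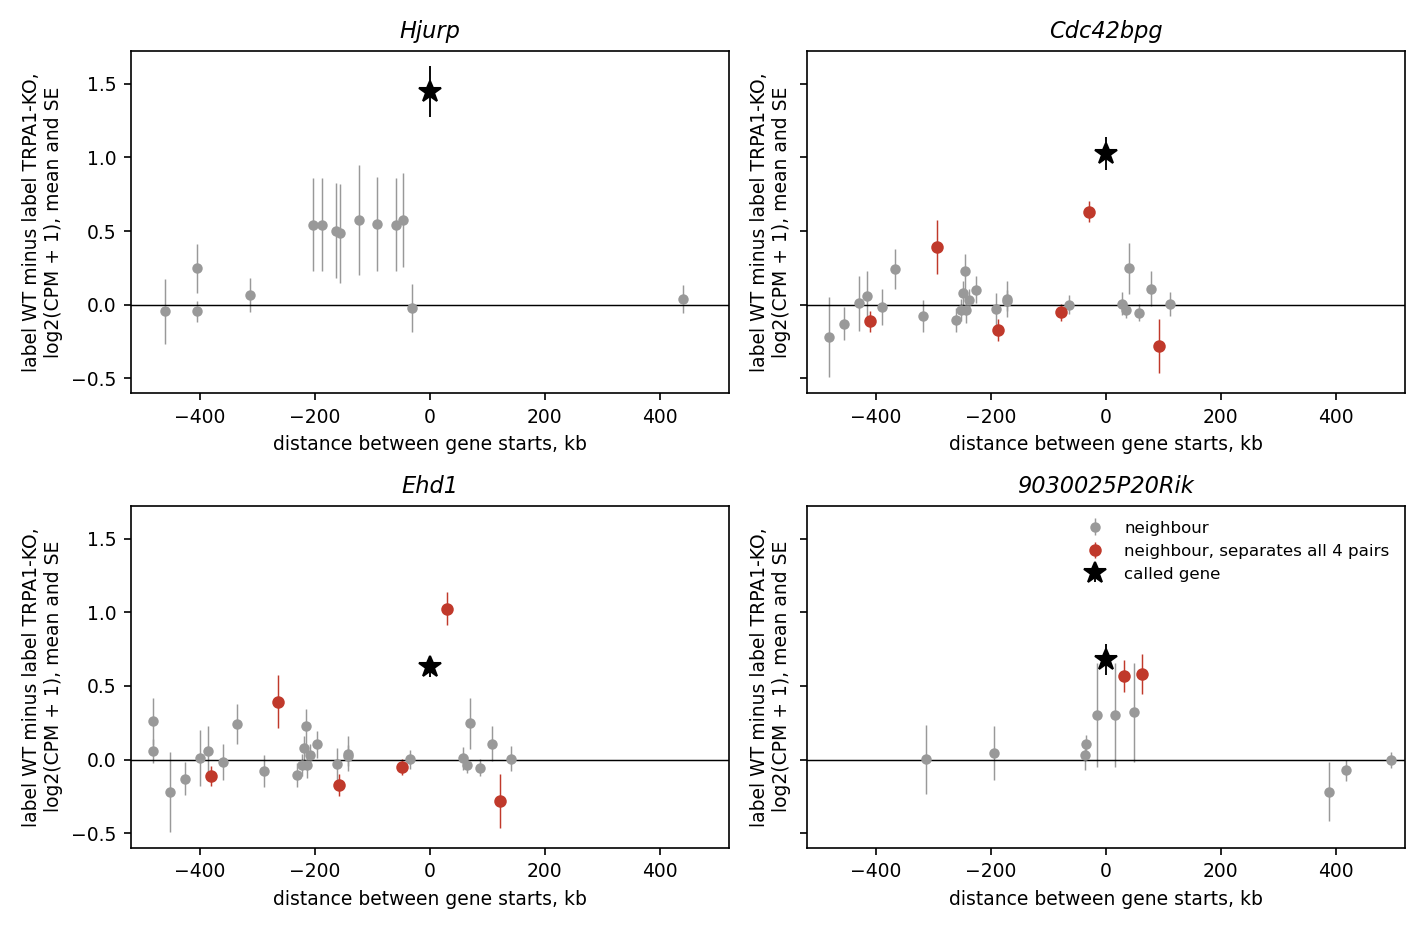
Label WT minus label TRPA1-KO on the log2(CPM + 1) scale with its SE from limma (y axis) against the distance in kb from the start of each called gene (x axis, star at 0), for tested genes within 500 kb. *Hjurp* and *Cdc42bpg* stand above their neighbours, and *Ehd1* stands above all of its own except *Cdc42bpg*. Of the neighbours of *Hjurp*, *Cdc42bpg* and *Ehd1*, 0 of 14, 6 of 30 and 6 of 32 separate all 4 pairs, beside 10.8% of all genes tested. Close to *9030025P20Rik* lie 2 of its neighbours.

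By chromosome, the share of tested genes that separated all 4 pairs ran from 8.35% on chromosome 18 to 13.1% on chromosome 19, beside 10.8% over all autosomes. The share whose labels did not overlap ran from 0.849% on chromosome 16 to 3.46% on chromosome 2 and was 3.07% on chromosome 19. On chromosome 2 the 11 genes of the distal run made up part of 42 genes whose labels did not overlap. When genes with the same reads were counted once, an alternative chosen after the data were seen, 347 genes remained over all autosomes.

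**Figure D4:**
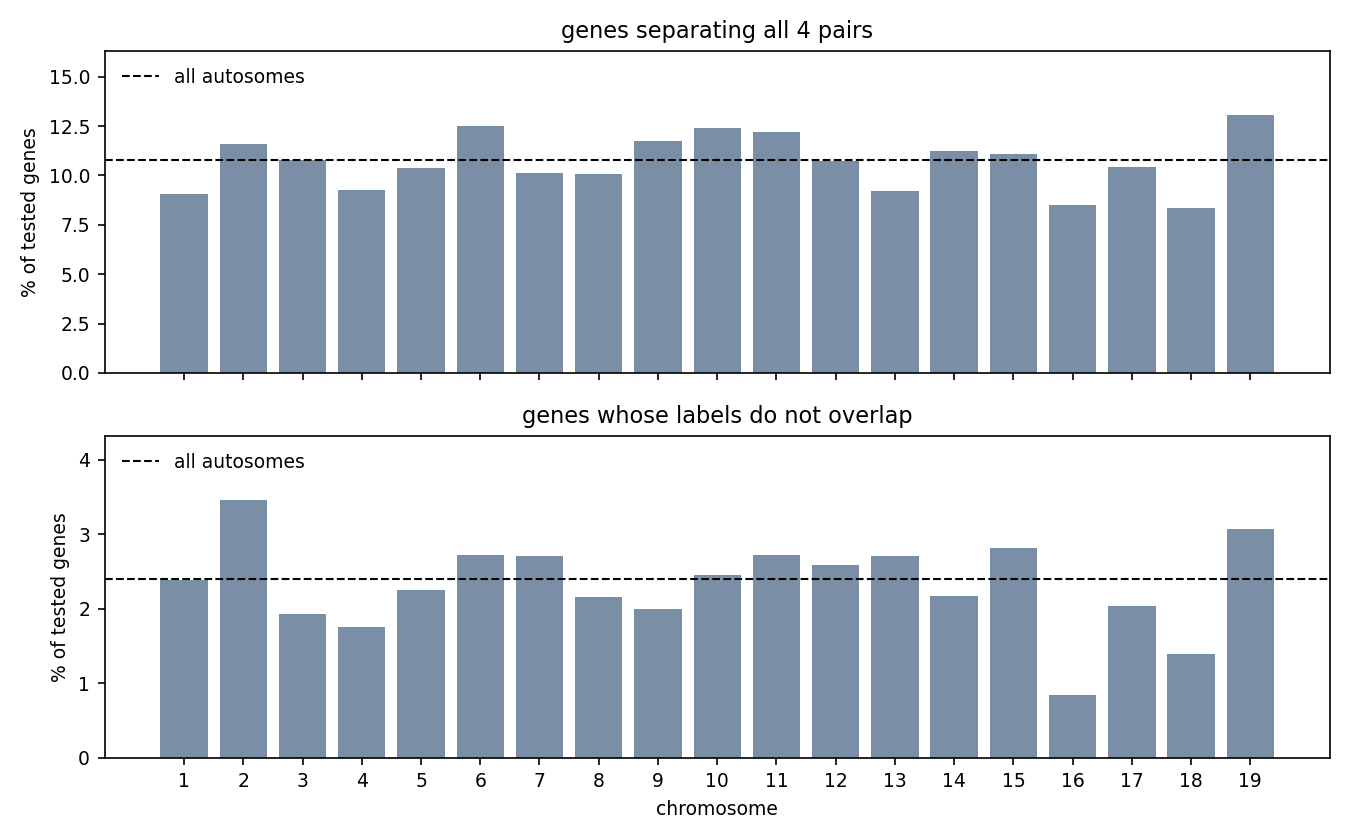
Percentage of tested genes (y axes, from 0) on each autosome (x axis) that separated all 4 pairs (upper panel) and whose labels did not overlap (lower panel); dashed lines mark the share over all autosomes. Chromosomes 2 and 19 have the highest shares without overlap, 3.46% and 3.07%, and chromosome 16 has the lowest, 0.849%.

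Chromosome 1, which carries *Trpa1*, had 80 separating genes among 881 tested (9.08%). Within 5 Mb of *Trpa1*, 4 of 27 tested genes separated all 4 pairs (14.8%), beside 2 of 31 at 5 to 10 Mb (6.45%), 3 of 21 at 10 to 20 Mb (14.3%) and 71 of 802 (8.85%) at more than 20 Mb, so the share did not fall steadily with distance. The 4 were *Slco5a1* (0.36, SE 0.13), *Rdh10* (0.32, SE 0.13) and *Crispld1* (0.34, SE 0.19), higher with the label WT, and *Ube2w* (-0.11, SE 0.066). *Rdh10* encodes a retinol dehydrogenase that starts retinoic acid synthesis. The closest tested neighbours on either side, *Msc* (0.14, SE 0.21) and *Kcnb2* (0.17, SE 0.15), did not separate the pairs. No gene within 20 Mb of *Trpa1* was called by limma, and 7 of these genes had an unadjusted limma p under 0.05. They were 3 of 27 up to 5 Mb, 1 of 31 at 5 to 10 Mb and 3 of 21 at 10 to 20 Mb. Farther away 31 of 802 genes had such a p, beside 3.81% over all autosomes.

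Function lists were chosen with results of these data known, so their counts are descriptions, to be read against 10.8% separating and 2.4% without overlap over all genes tested. limma, edgeR and DESeq2 called 0 genes in the 10 function lists, and an unadjusted limma p under 0.05 was reached by 9 genes of the interferon list and by 0 to 3 in each of the others. Of the families formed by symbol, only the predicted genes held a called gene, *9030025P20Rik*. The myelin gene *Mog* was called without the sham library labelled TRPA1-KO.

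Genes induced by interferon were all on 1 side. All 25 tested members had a higher mean with the label WT, 9 had an unadjusted limma p under 0.05, and 7 separated all 4 pairs: *Rtp4*, *Ifit1*, *Irf7*, *Isg15*, *Usp18*, *Rsad2* and *Ddx58*. The median difference over the list was 0.065 in the sham pair, 1.89 on day 7, 0.90 on day 10 and -0.24 on day 14, so the sizes rested on the day 7 and day 10 pairs. *Rsad2*, which encodes the antiviral enzyme viperin, had 1.80, 8.98, 2.77 and 2.63 CPM in the sham, day 7, day 10 and day 14 libraries labelled WT and 1.05, 0.889, 1.28 and 1.56 CPM in those labelled TRPA1-KO. Its labels did not overlap, and the difference was 1.02 (SE 0.33, limma adjusted p = 0.997). *Rtp4*, which encodes a receptor transporter protein, had 8.98 CPM in the day 7 library labelled WT and between 2.14 and 2.27 CPM in the other 3, against 1.67 to 2.14 CPM with the label TRPA1-KO. *Ifit1* differed by 0.46, 2.03, 1.65 and 0.39 in the sham, day 7, day 10 and day 14 pairs. Summed CPM of 6 microglial markers moved in the same libraries, at 745 and 476 in the day 7 and day 10 libraries labelled WT and between 278 and 384 in the 4 labelled TRPA1-KO, and its part in these differences was not tested.

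Antigen presentation and reactive astrocyte genes had a like profile over the pairs but few separating genes. Of 16 genes of MHC class I presentation 15 had a higher mean with the label WT, and *H2-T23* alone separated the pairs. Of 31 reactive astrocyte genes all 31 had a higher mean with the label WT, and *Tgm1*, *H2-T23* and *Lcn2* separated the pairs. The median difference of the reactive astrocyte genes was 0.078 in the sham pair, 1.65 on day 7, 0.65 on day 10 and -0.34 on day 14. *Lcn2*, which encodes the iron-siderophore binding protein lipocalin-2, had 6, 105, 4 and 3 reads in the sham, day 7, day 10 and day 14 libraries labelled WT and, in the same order, 0, 1, 0 and 2 reads with the label TRPA1-KO. All but the day 7 library were at a handful of reads.

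Of the TRP channel genes 18 were tested, and *Trpc7* alone separated the pairs (-0.36, SE 0.21, higher with the label TRPA1-KO). In the family of leukemia inhibitory factor and its signalling, 2 of 12 genes did so, both higher with the label WT: *Jak1*, the kinase of the shared receptor chain (0.12, SE 0.055), and *Cntf*, the ciliary neurotrophic factor (0.57, SE 0.25). *Jak1* lay between 187 and 202 CPM with the label WT and between 169 and 184 CPM with the label TRPA1-KO, without overlap. Of 15 myelin genes tested, those that separated the pairs included *Opalin* (-0.23) and *Pllp* (-0.15), both higher with the label TRPA1-KO. Among 14 immediate early genes *Btg2* (-0.28) and *Ier2* (-0.30) did, both higher with the label TRPA1-KO.

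In the remaining lists *Mvk*, the mevalonate kinase of cholesterol synthesis, was 1 of 20 (-0.23), and *Gsta4* (0.15) and *Ndrg1* (-0.22) were 2 of 19 antioxidant and hypoxia genes. *Wdfy1* was 1 of 4 tested genes known to vary between C57BL/6 substrains (0.25, SE 0.097, limma adjusted p = 0.997). Of the 20 cholesterol synthesis genes 0 had a higher mean with the label WT. The median difference of that list was 0.050 in the sham pair, -0.74 on day 7, -0.14 on day 10 and 0.056 on day 14. Genes whose symbols begin with Rpl or Rps, which take in ribosomal proteins and also kinases such as *Rps6ka4*, separated the pairs in 18 of 89 cases (20.2%), 15 of them higher with the label WT, with a median difference of 0.074. Of 101 nuclear genes of the respiratory chain 6 separated the pairs (5.94%), and only the labels of *Cox10* did not overlap (-0.20, SE 0.10). Zinc finger genes with Zfp symbols separated in 40 of 363 cases (11%), and predicted genes in 106 of 928 (11.4%). Of 66 protocadherin genes 1 separated the pairs.

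Striatal projection neuron genes were the cell type list with the largest share. Of 8 markers 7 separated all 4 pairs, *Ppp1r1b*, *Pde10a*, *Rgs9*, *Penk*, *Adora2a* and *Drd1* among them, all higher with the label TRPA1-KO, and their median difference was -0.33. *Penk*, which encodes the opioid precursor proenkephalin, had 214, 99.0, 150 and 141 CPM in the sham, day 7, day 10 and day 14 libraries labelled WT and 323, 144, 207 and 187 CPM in those labelled TRPA1-KO. The labels overlapped, since within each label the sham library was the highest and the day 7 library the lowest. With the mean marker level of this list as a covariate, an alternative chosen after the data were seen, limma called *Cdc42bpg*, *Ehd1* and *Hjurp*. Of 6 endothelial markers *Pecam1* and *Ly6c1* separated the pairs, higher with the label WT, and *Ly6c1* differed by 0.26 (SE 0.083). Summed endothelial markers were 243 to 272 CPM with the label WT and 228 to 241 CPM with the label TRPA1-KO.

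The operation was compared with the label in the same genes. BCAS against sham, with label as a covariate, gave 0 genes at an adjusted p under 0.05 by limma and 543 at an unadjusted p under 0.05 (3.72%), 195 higher and 348 lower after BCAS. edgeR called 0 genes and DESeq2 12. The label and the operation contrasts use the same 8 libraries, and the operation contrast has 1 sham library per label. Among the genes with the smallest p for BCAS in each direction was *Anxa11*, which encodes a calcium-dependent membrane-binding annexin. It had 29.8 and 33.1 CPM in the sham libraries and between 42.3 and 50.5 CPM in the 6 BCAS libraries. Its BCAS difference was 0.53 beside a label difference of -0.05, and it did not separate the pairs. The predicted genes *Gm2260* and *Gm2274*, which had identical reads and share sequence with *Anxa11*, differed by 0.54 after BCAS and by -0.09 between the labels, and they separated the pairs. *Penk* (-0.80), *Kcnab1* (-0.42) and *Kcna5* (-0.79) had negative BCAS differences, the last 2 encoding subunits of potassium channels. *Penk* and *Kcnab1* separated the pairs and *Kcna5* did not. *Penk* belongs to the striatal list, whose median BCAS difference was -0.75. The mean log2 level of that list was 7.21 and 7.69 in the sham libraries and between 6.28 and 7.14 in the BCAS libraries, and its part in these differences was not tested.

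Over all genes tested the median absolute difference was 0.072 for the label and 0.080 for BCAS. The largest were 1.57 for the label and 2.89 for BCAS. Among the separating genes the medians were 0.18 for the label and 0.099 for BCAS, and the label difference was the larger in 75.2% of them beside 46.9% of all genes, which the choice of genes favours. For the 11 genes with at least 0.5 in each pair the medians were 1.26 and 0.44, which their choice favours too. In the 4 called genes the BCAS differences were 0.09 for *Hjurp*, -0.15 for *Cdc42bpg*, -0.06 for *Ehd1* and 0.03 for *9030025P20Rik*. The label fit had no term for the operation, so a move with BCAS widened the spread and made a call less likely. Small BCAS differences in the called genes are therefore favoured by how they were chosen. For *Zfp967* the BCAS difference was -0.71 (limma unadjusted p = 0.10).

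**Figure D5:**
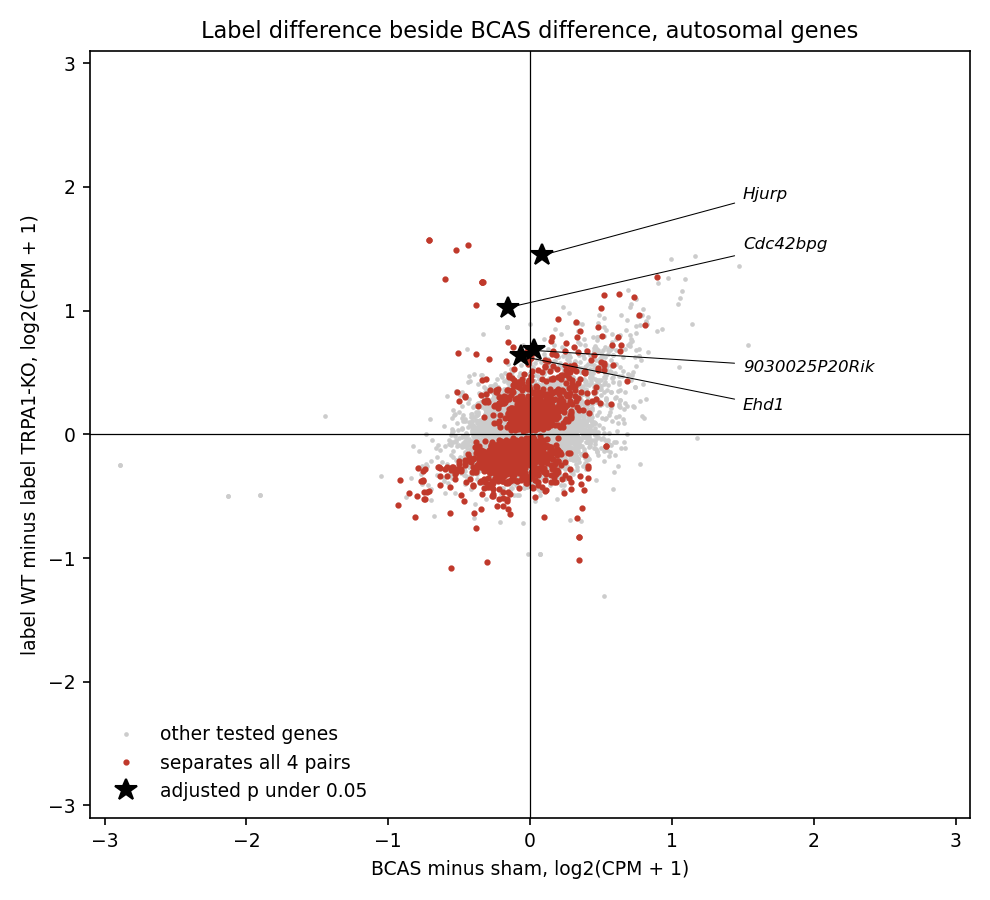
Label WT minus label TRPA1-KO (y axis) against BCAS minus sham (x axis), both on the log2(CPM + 1) scale, for the 14601 genes; red points separate all 4 pairs and stars are the 4 genes called by limma. The stars lie between -0.15 (*Cdc42bpg*) and 0.09 (*Hjurp*) on the BCAS axis, while the label difference reaches 1.57 and the BCAS difference 2.89 in size. Their fit had no term for the operation, which favours genes with a small BCAS difference. The red points leave a gap around a label difference of 0 because they were chosen on that axis.

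Whether a label difference seen in 3 pairs recurs in the fourth was read from the pair left out. Of 3146 genes with 1 direction in the 3 BCAS pairs, 1571 kept it in the sham pair (49.9%), beside 49.7% of all genes that were higher with the label WT in that pair. Leaving out day 7, day 10 or day 14 in turn gave 40.2%, 55.9% and 41.6%. Genes that differed by at least 0.5 in each of the other 3 pairs were few, and 16 of 28 (57.1%) kept their direction in the sham pair, 19 of 25 (76%) on day 7, 16 of 21 (76.2%) on day 10 and 24 of 57 (42.1%) on day 14. Near copies of the chromosome 2 cluster are counted singly in these shares. *Zfp965*, *Zfp966*, *Zfp967*, *Zfp968* and *Zfp973* were among the genes that kept their direction in each of the 4 pairs. On day 7 *Gm4724*, *Gm2026*, *Gm14434* and *Gm14308* were as well. Some of these genes had identical reads, so they are not separate cases. The pairs also differed in their own spread, with 33 genes over 1 in the sham pair and 641, 207 and 83 on days 7, 10 and 14.

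Label by operation, the difference between the BCAS and the sham label differences, gave 0 calls by limma and 195 genes at an unadjusted p under 0.05 (1.34%), with 1 sham library per label. edgeR and DESeq2 also gave 0 calls. By the smallest p in each direction, taken separately, the genes were *Mog*, *Arl5c*, *H2ac19*, *Ppp2r5c*, *Npas4* and *Mir684-1*. *Mog*, which encodes a glycoprotein of the outer myelin surface, had 168 CPM after sham and 148 to 154 CPM after BCAS with the label WT, against 185 CPM after sham and 98.4 to 115 CPM after BCAS with the label TRPA1-KO (0.65, limma adjusted p = 1.0). *Npas4*, an activity-induced transcription factor gene, had 32.0 CPM after sham and 17.3 to 18.3 CPM after BCAS with the label WT, against 24.7 CPM and 26.5 to 36.0 CPM with the label TRPA1-KO (-1.1, limma adjusted p = 1.0).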

How the data were processed

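Corpus callosum RNA of 8 libraries was measured by RNA sequencing, 4 labelled WT and 4 labelled TRPA1-KO. According to the study and the submitters' processing notes, polyadenylated RNA was made into libraries with the NEBNext Ultra RNA kit, and reads were mapped to mm10 with HISAT2, counted with featureCounts of Subread and scaled with edgeR. The strand setting of the counting is not given in the sources used here. The deposited values are a normalized signal per gene: the authors divided gene counts by scaled library sizes, and each library sums to between 966202 and 1022161, so the values are called CPM here. The design had assumed plain CPM, and the planned limma test was kept. Whole reads were recovered for 100% of values above 0, within 0.01 of a whole number, and totalled 7896071 to 12952093 per library. Intervals and limits on low counts cover counting error only.

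RefSeq (GRCm38.p6) placed 25041 symbols and GENCODE M21 a further 101, and 97 symbols stayed without a position. Values were taken as log2(CPM + 1), a pseudocount that understates changes of low genes. Genes averaging 1 CPM or more over the libraries (15152, of which 14601 autosomal) entered limma 3.58.1 (R 4.3.3, trend), with Benjamini-Hochberg adjustment over all 15152 and a threshold of 0.05. edgeR 4.0.16 and DESeq2 1.42.0 were run on the recovered reads. On simulated counts for the label comparison over 15152 genes, limma called 98% of 200 genes changed 2-fold, and 4.39% of its calls were unchanged genes. The changed genes were drawn from genes with many reads, and the simulated spread followed the trend with expression level. A gene's own spread over operation, day and animal was not simulated. The 98% therefore does not carry over to the real libraries. Single genes were tested by exact permutation of 4 against 4 libraries (scipy 1.17.1). Shared sequence was measured as the share of 50-base stretches of a gene's GENCODE transcripts found in another gene.

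Named were *Trpa1*, the called genes, up to 5 further genes per direction with the largest smallest-pair difference without overlap, up to 2 such members of each list, up to 3 of each run and up to 3 per direction with the smallest p for BCAS and for label by operation. Separating members of lists and neighbours of called genes were named after their values were seen. The members, lists and named-gene rule were chosen with earlier results of these data known. Alternatives covered pseudocount, filter, scaling, block, covariates, tool and each library left out. The labels do not tie libraries to animals, and the study's methods describe samples in general as single mice. The p-values measure the spread between these libraries. Values of some list members are not reported here.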

Additional observations from a re-analysis of the deposited data

Results flagged for a closer look

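Among 91 named genes other than *Trpa1*, the 4 libraries of each label were searched for 1 library standing apart, meaning that its gap to the next library, divided by the range of the 4 on the log2 scale, exceeded Dixon's 95% critical value. This held in 14 of 182 sets of 4 (7.69%). The usual rate of about 1 in 20 does not apply here, because the genes were named for their values and some share reads. Genes named for BCAS or for label by operation were chosen partly on how the sham libraries differ. That choice favours a sham library standing apart. In 7 of the 14 the library was day 7 BCAS labelled WT. It was the highest of its label for *9030025P20Rik* (0.868), *Gm3435* (0.873), *Ermard* (0.892), *Rtp4* (0.966), *Lcn2* (0.94) and *Coa4* (0.916), and the lowest for *Elavl3* (0.866). *9030025P20Rik*, *Gm3435* and *Ermard* share sequence, so they are not separate cases.

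With the label TRPA1-KO the sham library stood highest for *Arl5c* (0.954) and *2610507B11Rik* (0.925) and lowest for *Anxa11* (0.913). The day 7 library stood highest for *Cox10* (0.831), the day 14 BCAS library highest for *Xrra1* (0.895) and the day 10 library lowest for *Ly6c1* (0.928). The sham library labelled WT stood highest for *Npas4* (0.916).

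For 10 of the 91 genes all 3 BCAS libraries of 1 label lay above the sham library of that label while all 3 of the other label lay below theirs. The mean BCAS minus sham difference with the label WT, less that with the label TRPA1-KO, was 1.83 for *Arl5c*, 0.8 for *H2ac19*, -1.099 for *Npas4* and -0.766 for *Mir684-1*, genes that were named for this difference. For the others it was 0.416 for *Coa4*, 0.292 for *Cep41*, 0.074 for *2610507B11Rik*, -0.09 for *Kif3b*, -0.136 for *Ube2d-ps* and -0.332 for *Lin7b*. The label by operation test of limma gave an adjusted p of 1.0 for each of the 10, with unadjusted p from 0.0012 for *Npas4* to 0.60 for *2610507B11Rik*.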

How the results depend on the processing

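The label comparison gave 4 calls, and 2 with limma's robust option and 8 with DESeq2, of which 7 were higher with the label WT. Leaving out 1 library at a time gave 3 to 9 calls, the highest without the day 7 BCAS library labelled WT and 7 without that labelled TRPA1-KO. *Cdc42bpg* and *Ehd1* were called in each of these settings and *Hjurp* in all but the robust fit. *9030025P20Rik* lost its call with no filter, with a filter at a mean of 0.1 or 5 CPM, with p adjusted over autosomal genes alone, in edgeR, in the robust fit, with the replicate block, with operation or the striatal marker level (chosen after the data were seen) as a covariate and without each library but the day 7 BCAS library labelled WT. BCAS against sham gave 0 calls by limma and 12 by DESeq2, 5 of them higher after BCAS. Leaving out a library, which leaves 3 pairs or 3 libraries of a label, raised the count of separating genes to 2809 to 3909 and of genes whose labels do not overlap to 570 to 830. The share keeping its direction was 49.9% in the sham pair and 40.2%, 55.9% and 41.6% with day 7, 10 or 14 left out. With at least 0.5 in each of the other 3 pairs it was 57.1%, 76%, 76.2% and 42.1%, shares in which near copies on chromosome 2 are counted singly.

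Libraries of the 2 labels share only operation and day. The correlation across 10357 genes of their deviations from the label means was 0.19 for the sham pair and -0.052, -0.059 and -0.24 for days 7, 10 and 14. Between libraries of unlike conditions it ran from -0.16 to 0.23. The lowest was BCAS day 14 labelled WT with sham labelled TRPA1-KO. The highest was BCAS day 14 labelled WT with BCAS day 7 labelled TRPA1-KO. Sharing the day of BCAS thus did not bring a higher correlation. With operation and day as a replicate block, limma gave 3 calls (539 at an unadjusted p under 0.05), and 0 calls (116) for label by operation, which could not be fitted without a sham library. No block exists for BCAS against sham, where it is the contrast itself. Of the values of named genes under alternatives, 1551 of the label difference kept direction and side of the threshold, 17 lost it, 5 gained it and 1 moved, and 0 reversed. Depth limits genes at a few reads, *Trpa1* among them.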
